A study of Rattus norvegicus with 60 samples.

Results

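Gene expression in the frontal cortex of rats given 1 mg/kg deltamethrin was compared with that of rats given vehicle, 6 h after dosing. The comparison used the 8 arrays whose labels give deltamethrin at 1 mg/kg and the 12 arrays labelled vehicle, 20 of the 60 arrays of the series, and all 31042 probe sets. The tested rats received a single oral gavage of 1 mg/kg deltamethrin in corn oil, and the vehicle rats received corn oil alone, both at 1 mL/kg. All were adult male Long-Evans rats, an outbred strain, of postnatal day 62 to 64, with 1 Affymetrix Rat Genome 230 2.0 array for each animal and no pooling of RNA. The dose of 1 mg/kg, at which deltamethrin has no observable adverse effect on behaviour, lay between doses of 0.3 and 3 mg/kg with 8 rats each. The other 24 arrays were from rats given permethrin.

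Deltamethrin is a pyrethroid insecticide with an α-cyano group. Pyrethroids slow the closing of voltage-gated sodium channels, which prolongs the sodium current and makes neurons more excitable. In cortex, strong neuronal firing and calcium entry switch on immediate early genes such as Fos, Egr1 and Arc, and later genes for neuropeptides and calcium-dependent kinases. A stressor also raises corticosterone, whose receptor acts on genes such as Fkbp5 and Tsc22d3.

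The arrays had similar medians, from 7.09 to 7.2 on the log2 scale of the deposited values, and they varied together in groups that no label names. The first principal component of the differences between rats of a group held 59.6% of the variance and the second 11.1%. On these components the 60 arrays fell into a set of 24 and a set of 36. The set of 24 held 3 of the 8 rats at 1 mg/kg and 6 of the 12 vehicle rats, and the set of 36 held 5 and 6. The study's methods describe cohorts of these same group sizes, exposed on separate days, but the labels name no cohort. Within the set of 24, 14 arrays stood far apart on the first component, among them replicates 1 and 2 at 1 mg/kg and replicates 4 and 5 of vehicle. Values are therefore also given within each set and without those 14 arrays. Slc17a7, the vesicular glutamate transporter of cortical neurons, was bright in every rat, at 11.9 to 12.91 at 1 mg/kg and 12.2 to 12.87 in vehicle. This 1 marker does not show how clean the dissection was, and a choroid plexus marker given below varied widely between vehicle rats.

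No probe set passed the test at 1 mg/kg. In the limma fit the lowest adjusted p over the 31042 probe sets was 1.0, so 0.0% were called, and a fit of the 20 arrays alone also called 0. Before adjustment, 413 probe sets (1.33%) were higher than in vehicle and 282 (0.908%) were lower at p under 0.05. Together these were fewer than a 0.05 share. The arrays vary together, so the share where nothing differs need not be 0.05, and it was 1.21% in 1 simulation below. The counts alone are therefore not evidence of a change. Higher ones made up 59.4% of the 695. With each array centred on its own median, the counts were 717 higher and 104 lower, and higher ones made up 87.3%, so the balance of directions depended on the scaling. No probe set had all 8 values at 1 mg/kg above or below all 12 vehicle values (0.0%). Each gene was then taken by its brightest probe set. Of 14217 named genes, 267 (1.88%) were higher and 72 (0.506%) lower before adjustment, and the median difference was 0.01 log2 units. Every named difference below therefore describes these rats and did not pass correction over all probe sets. In a simulation, changes were put into the arrays' own residuals. The same test found 48 of 50 probe sets changed by 1 log2 unit, 37 of 50 by 0.5 and 18 of 50 by 0.25. All changed probe sets were tested together, which eases the adjusted threshold, so these rates may be too high for the real data. Among unchanged probe sets there, 1.21% had an unadjusted p under 0.05.

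**Figure D1:**
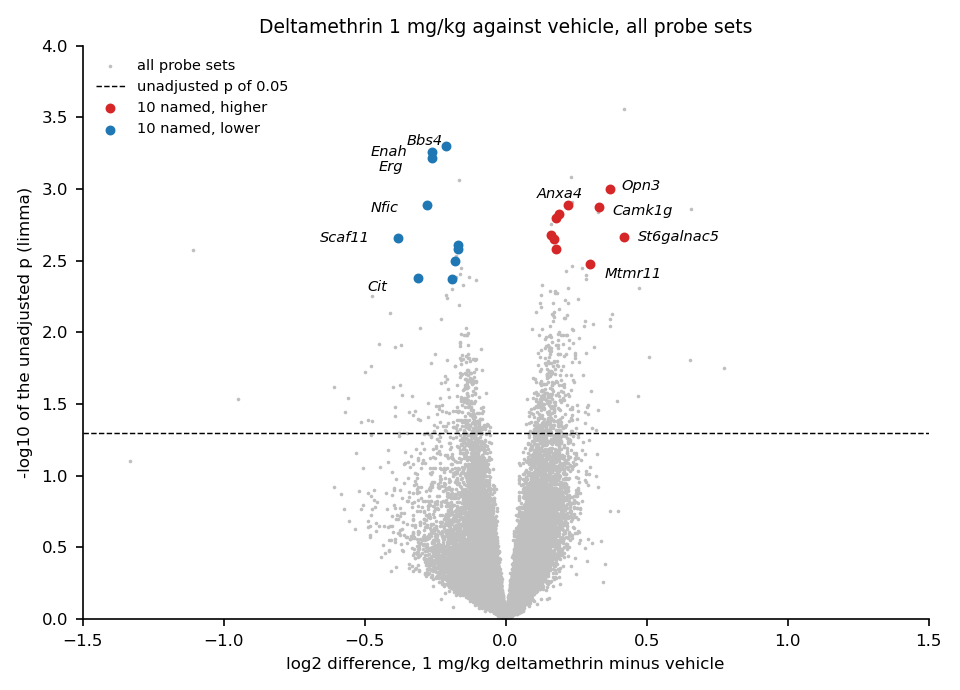
Log2 difference of 1 mg/kg deltamethrin minus vehicle (x axis) against -log10 of the unadjusted limma p (y axis) for 31042 probe sets, with the 10 named probe sets of lowest p that were higher in red and the 10 that were lower in blue. The dashed line marks p = 0.05, and 413 probe sets lie above it on the higher side and 282 on the lower side.

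The leading genes on the higher side differed by 0.16 to 0.42 log2 units. Opn3, encephalopsin, an opsin made in brain, had 6.85, 7.2 and 7.49 log2 units (lowest, median, highest) at 1 mg/kg, against 6.46, 6.74 and 7.27 in vehicle. The difference was 0.37 ± 0.11 (SE), a 1.3-fold change, with an unadjusted p of 0.000994 and an adjusted p of 1.0 in limma. All 8 dosed rats were above the vehicle mean, but only 1 was above the highest vehicle rat. The leading genes were picked by their p on these same rats. The counts of rats given for them, here and in the figure, follow in part from that choice.

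Anxa4, a calcium-dependent phospholipid-binding annexin, had 8.92, 9.15 and 9.2 at 1 mg/kg and 8.61, 8.93 and 9.08 in vehicle. The difference was 0.22 ± 0.06, or 1.16-fold, with an unadjusted p of 0.0013. Its groups overlapped least among the leading genes that were higher, since 6 of 8 dosed rats exceeded every vehicle rat.

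Camk1g encodes the γ isoform of calcium/calmodulin-dependent protein kinase I, a membrane-anchored kinase of neurons. Its brighter probe set was at 9.12, 9.48 and 9.75 at 1 mg/kg, against 8.86, 9.19 and 9.42 in vehicle, a difference of 0.33 ± 0.10 (1.26-fold, unadjusted p = 0.00133). Of the 8 dosed rats, 7 were above the vehicle mean and 5 above the highest vehicle rat. A second, dimmer probe set had 6.93, 7.41 and 7.92 at 1 mg/kg and 6.51, 6.84 and 7.44 in vehicle. It differed by 0.47 ± 0.16 (1.39-fold, unadjusted p = 0.00491), so both probe sets of the gene were higher. Camk1g, and St6galnac5, Polr2c, Max and Vdac1 below, had been picked by the study for a dose response on these arrays, so their values here are no independent evidence.

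St6galnac5 makes sialylated gangliosides of the neuronal surface. It had 7.42, 7.8 and 8.18 at 1 mg/kg and 6.91, 7.42 and 7.81 in vehicle, a difference of 0.42 ± 0.13 (1.34-fold, unadjusted p = 0.00218), with 4 dosed rats above every vehicle rat. Polr2c, a subunit of RNA polymerase II, was 0.19 higher, and Zdhhc5, a palmitoyltransferase at synapses, was 0.18 higher, each with 5 of 8 dosed rats above all vehicle rats. Cldn12, a tight junction claudin, Ptpn21, a tyrosine phosphatase, Max, the partner of Myc, and Mtmr11, a myotubularin-related protein, were higher by 0.16, 0.17, 0.18 and 0.30.

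The lower side had the smallest unadjusted p-values among probe sets with 1 gene symbol. Bbs4, a subunit of the BBSome that carries proteins into cilia, had 6.7, 6.89 and 6.98 at 1 mg/kg, against 6.93, 7.07 and 7.37 in vehicle. The difference was -0.21 ± 0.06, to 0.87 of vehicle, with an unadjusted p of 0.000499 and an adjusted p of 1.0 in limma. All 8 dosed rats were below the vehicle mean and 6 were below the lowest vehicle rat.

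Enah, an actin regulator of growth cones, had 7.26, 7.54 and 7.67 at 1 mg/kg and 7.46, 7.78 and 7.98 in vehicle (-0.26 ± 0.07, unadjusted p = 0.000553). Erg, an ETS transcription factor of endothelial cells, had 6.33, 6.48 and 6.65 at 1 mg/kg and 6.55, 6.71 and 7.2 in vehicle (-0.26 ± 0.07, unadjusted p = 0.000611). For both genes all 8 dosed rats lay below the vehicle mean, with 2 below the lowest vehicle rat for Enah and 4 for Erg. Scaf11, a splicing-associated protein, had 7.06, 7.64 and 7.91 at 1 mg/kg and 7.55, 7.91 and 8.28 in vehicle, and differed by -0.38 ± 0.12 (unadjusted p = 0.0022). All 8 dosed rats were below the vehicle mean of Scaf11, and 3 were below the lowest vehicle rat.

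Nfic, a nuclear factor I transcription factor, differed by -0.28, Cit, citron kinase of dividing cells, by -0.31, and Rsf1, a chromatin remodelling factor, by -0.19. Elp5, a subunit of Elongator, Gmps, the GMP synthase, and LOC100909405 differed by -0.17, -0.18 and -0.17. The largest differences among named probe sets at unadjusted p under 0.05 were in Nt5dc1 (-0.61), Arc (-0.57), Gpd1 (0.51), Pkp4, an armadillo-repeat protein of cell junctions (-0.48), and Kdm5a, a histone H3K4 demethylase (-0.47).

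**Figure D2:**
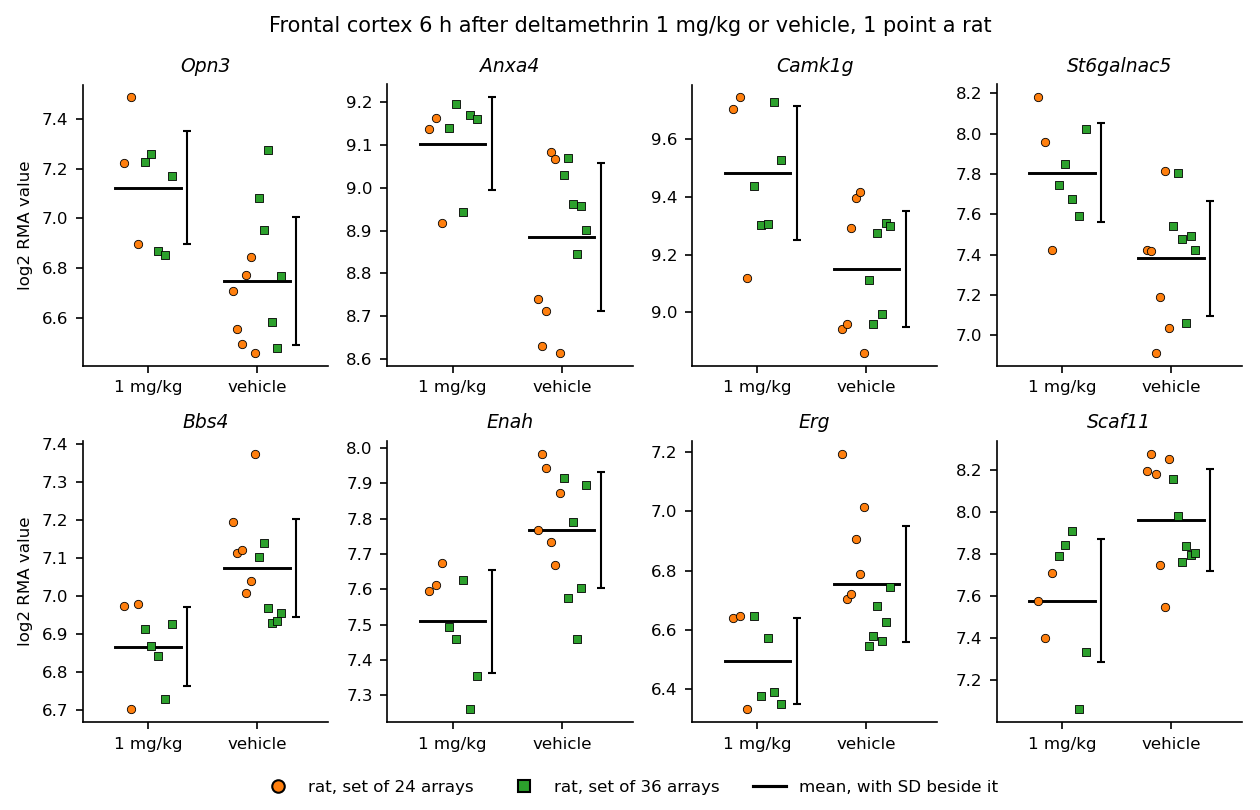
Log2 RMA values (y axes) of 8 leading genes in each rat, with 1 mg/kg deltamethrin left (8 rats) and vehicle right (12 rats), circles for the set of 24 arrays, squares for the set of 36, lines for the mean and bars for the SD. All 8 dosed rats lie above the vehicle mean for Opn3, Anxa4 and St6galnac5, 7 do for Camk1g, and all 8 lie below it for Bbs4, Enah, Erg and Scaf11.

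The leading genes were chosen on all 20 arrays, so their direction in subsets of those arrays is a description. Without the 14 arrays that stood apart, the 10 higher genes differed by 0.14 to 0.37 and the 10 lower genes by -0.43 to -0.12. Within the set of 24 the ranges were 0.15 to 0.56 and -0.47 to -0.10. Within the set of 36 they were 0.12 to 0.31 and -0.35 to -0.13. Opn3 had its smaller difference in the set of 36 (0.22, against 0.56 in the set of 24), as did Erg (-0.16, against -0.35), while Nfic had the reverse (-0.35, against -0.10). A test of whether the 1 mg/kg difference varied with the set called 0 of the 31042 probe sets in limma, with 545 at unadjusted p under 0.05 and a lowest adjusted p of 0.911.

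**Figure D3:**
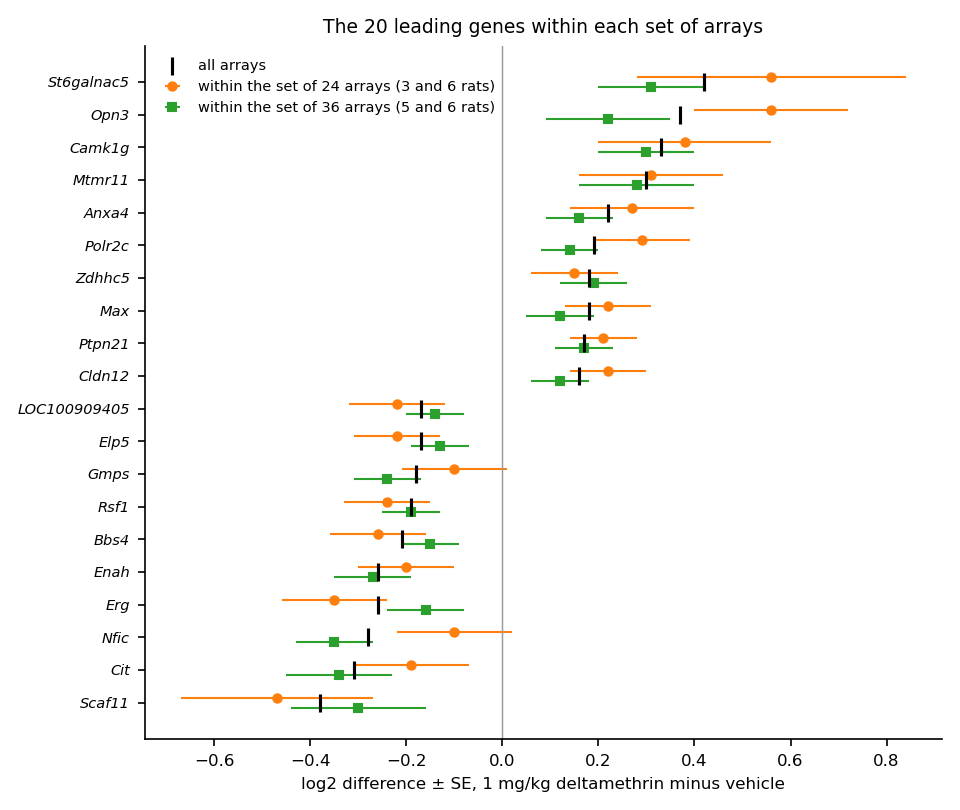
Log2 difference of 1 mg/kg deltamethrin minus vehicle (x axis) for the 20 leading genes within the set of 24 arrays and within the set of 36 arrays, with bars for the SE. The higher genes lie between 0.12 and 0.56 and the lower genes between -0.47 and -0.10 across both sets.

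Fitting the array set as a block narrowed the spread and raised the counts before adjustment to 1176 higher (3.79%) and 766 lower (2.47%), still with 0.0% called and a lowest adjusted p of 0.34. That lowest value belonged to Msra, a methionine sulfoxide reductase that repairs oxidized protein. Msra was at 6.32, 6.79 and 7.09 at 1 mg/kg and 5.95, 6.39 and 6.84 in vehicle. It differed by 0.37 ± 0.14 without the block (unadjusted p = 0.00811) and by 0.43 ± 0.09 with it (unadjusted p = 1.1e-05). Crhbp, the binding protein of corticotropin-releasing hormone, which was named after its values were seen, differed by 0.26 (unadjusted p = 0.202) without the block and by 0.35 (unadjusted p = 0.000261) with it.

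With the positions of the arrays along both components as covariates, 30 probe sets had an adjusted p under 0.05 in limma, 13 higher and 17 lower. They included both probe sets of Camk1g (adjusted p = 0.0169 and 0.0461), Msra (0.0169) and Pdlim7, a LIM domain protein of actin filaments (0.0461), all higher. Among the lower ones were Scaf11, Enah and Nfic (0.0263 each) and Sf3b1, a splicing factor of the U2 particle (0.0169). The components were computed from the same arrays that were tested, so these p-values are too small, and the differences themselves were those of the fit without covariates. With the group of 14 arrays as a block and the first component as a covariate, 11 probe sets were called, of which 7 were among the 30, and Camk1g was the 1 that was higher (0.35, adjusted p = 0.0229).

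The genes chosen for qRT-PCR in the study were read from the arrays here. Gpd1, Fkbp5, Ddc, Hspb1 and Camk1g among them, and Crh, had been picked for a dose response on these same arrays, so their p-values are not independent evidence. Bdnf, Rassf5, Fos and Egr1 had been picked for permethrin against the same vehicle rats, so their values are not fully independent either. The study also measured a separate cohort by qRT-PCR at the same deltamethrin doses and time. At the dose tested here, Gpd1, Fkbp5, Camk1g and Ddc did not differ significantly from control in that cohort. Gpd1 and Fkbp5 were near control there, so their higher array values at this dose were not repeated. Camk1g was higher there, short of significance. Gpd1, the cytosolic glycerol-3-phosphate dehydrogenase that links glycolysis to phospholipid synthesis, had the largest array difference among the genes chosen for qRT-PCR. It was at 8.73, 9.54 and 10.04 at 1 mg/kg and 8.37, 8.85 and 9.95 in vehicle, a difference of 0.51 ± 0.20 (1.42-fold, unadjusted p = 0.0149). Of the 8 dosed rats, 6 were above the vehicle mean and 2 above the highest vehicle rat. The difference was 0.80 in the set of 24, 0.31 in the set of 36 and 0.50 without the 14 arrays. Its second probe set differed by 0.30 (unadjusted p = 0.0871).

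Fkbp5, a co-chaperone of the glucocorticoid receptor, had 8.52, 8.67 and 9.05 at 1 mg/kg, against 7.97, 8.47 and 8.92 in vehicle. The difference was 0.24 ± 0.09 (1.18-fold, unadjusted p = 0.0119), with all 8 dosed rats above the vehicle mean and 1 above the highest vehicle rat. It was 0.26 in the set of 24, 0.19 in the set of 36 and 0.32 without the 14 arrays, but the direction turned within those 14 (-0.08, 2 rats at 1 mg/kg and 2 vehicle rats). The second probe set differed by 0.20 (unadjusted p = 0.0904). Ddc, dopa decarboxylase of monoamine synthesis, differed by -0.17 (unadjusted p = 0.036) in its brighter probe set and by -0.09 (unadjusted p = 0.391) in the other. Hspb1, a small heat shock protein, differed by 0.25 (unadjusted p = 0.102), and Rassf5, a Ras effector, by 0.14 (unadjusted p = 0.102). The growth factor gene Bdnf differed by 0.13 (unadjusted p = 0.361) and -0.03 (unadjusted p = 0.472) in its probe sets.

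The deltamethrin doses can be set side by side as group means, all against the same 12 vehicle rats. Gpd1, Fkbp5, Camk1g and Crh were picked by the study for such a dose response, so the steps between their doses are given as a description, with no test. Gpd1 averaged 8.95 ± 0.48 (SD) in vehicle, 8.81 ± 0.35 at 0.3 mg/kg, 9.45 ± 0.51 at 1 mg/kg and 9.94 ± 0.39 at 3 mg/kg. The 1 mg/kg rats were 0.64 ± 0.22 (SE) above those at 0.3 mg/kg, and the 3 mg/kg rats were 0.49 ± 0.22 above those at 1 mg/kg. Fkbp5 followed with means of 8.46, 8.48, 8.70 and 8.96 in the same order, with steps of 0.22 and 0.25 between the deltamethrin doses.

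Camk1g had means of 9.15 ± 0.20, 9.30 ± 0.10, 9.48 ± 0.23 and 9.54 ± 0.18. The step to 1 mg/kg from 0.3 mg/kg was 0.19, and the step on to 3 mg/kg was 0.06. Crh, the gene of corticotropin-releasing hormone, had means of 6.98, 7.15, 7.24 and 7.36. At 1 mg/kg Crh ranged over 6.98, 7.24 and 7.49, against 6.71, 6.96 and 7.25 in vehicle (0.26 ± 0.10, unadjusted p = 0.011), and 4 dosed rats exceeded every vehicle rat. Tsc22d3, the glucocorticoid-induced leucine zipper, had means of 10.35, 10.37, 10.54 and 10.54, and differed by 0.19 at 1 mg/kg (unadjusted p = 0.0402).

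Several of the leading genes on the lower side had their lowest mean at 1 mg/kg. Bbs4 averaged 7.07 in vehicle, 7.06 at 0.3 mg/kg, 6.87 at 1 mg/kg and 7.01 at 3 mg/kg. It was lower by 0.19 at 1 than at 0.3 mg/kg and higher by 0.14 at 3 than at 1 mg/kg. Enah (7.77, 7.67, 7.51 and 7.69) and Scaf11 (7.96, 7.94, 7.58 and 7.84) had the same shape, as did Cldn12 on the higher side (9.43, 9.46, 9.58 and 9.47). These genes were picked for their difference at 1 mg/kg, which bears on that dose being the extreme one, and no test is given of these steps. Over all 31042 probe sets, limma called 0.0% between 1 and 0.3 mg/kg, with 179 higher and 146 lower at unadjusted p under 0.05, and 0.0% between 3 and 1 mg/kg, with 61 higher and 60 lower. Between 1 and 0.3 mg/kg, 171 were called with both components as covariates (15 higher, 156 lower) and 200 with the group of 14 as a block and the first component (10 higher, 190 lower), and those p-values are too small in the same way as above.

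**Figure D4:**
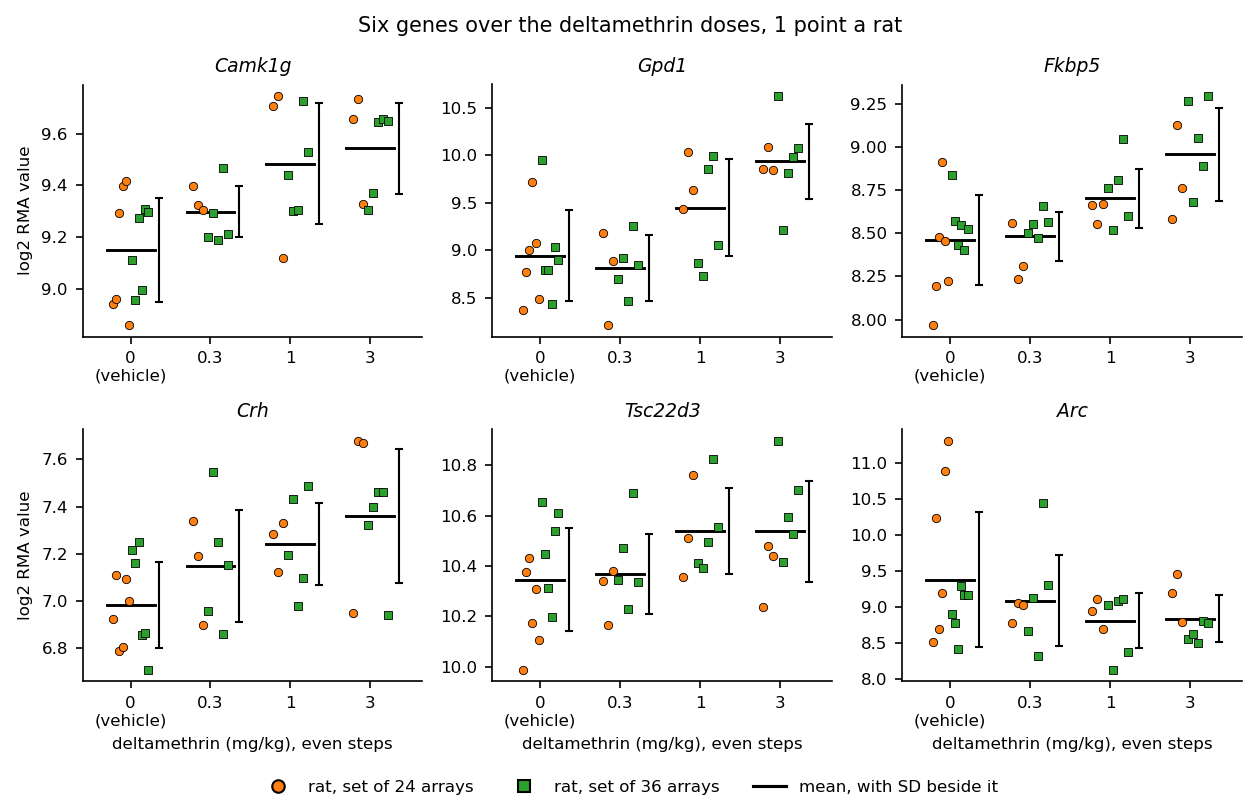
Log2 RMA values (y axes) of Camk1g, Gpd1, Fkbp5, Crh, Tsc22d3 and Arc in each rat of the vehicle (12 rats) and the 0.3, 1 and 3 mg/kg deltamethrin groups (8 rats each), with lines for the mean and bars for the SD. Gpd1 averaged 9.45 at 1 mg/kg and 9.94 at 3 mg/kg, against 8.95 in vehicle, and 3 vehicle rats stood above 10 for Arc.

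The study's qRT-PCR time course at 3 mg/kg deltamethrin had Fos and Egr1 rising earlier and back at control levels by 6 h. In these arrays, immediate early genes, which report recent neuronal firing, were not higher as a group. Of 23 measured, 0 were higher and 1 was lower at unadjusted p under 0.05, beside 1.88% and 0.506% of all named genes, and the list median was -0.065. The lower gene was Arc, which encodes a synaptic regulator of glutamate receptors. Arc was at 8.12, 8.98 and 9.11 at 1 mg/kg and 8.41, 9.16 and 11.31 in vehicle, a difference of -0.57 ± 0.26 (unadjusted p = 0.036). All 8 dosed rats were below the vehicle mean of 9.37, a mean set by 3 vehicle rats of the set of 24. Replicates 2, 5 and 6 of vehicle were at 10.2, 10.9 and 11.3, and the other 9 were below 9.3. Without vehicle replicate 6 the difference was -0.39, within the set of 24 it was -0.89 and within the set of 36 it was -0.21.

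The other immediate early genes gave no common picture. Fos differed by 0.02 (unadjusted p = 0.834) in its brighter probe set and by -0.38 (unadjusted p = 0.241) in the other, and Egr1 by -0.06 (unadjusted p = 0.677). Nr4a1, an orphan nuclear receptor, differed by -0.35 (unadjusted p = 0.0501) and Klf4, a zinc finger factor, by -0.23 (unadjusted p = 0.0535), both named after their values were seen. Klf4 had also been picked by the study for a dose response on these arrays, so its value is not independent evidence. Fosb was 0.26 above vehicle (unadjusted p = 0.155). Of 22 late activity-regulated genes, 2 were higher (Crh and Npy, neuropeptide Y, by 0.10) and 0 lower, with a list median of 0.07. Among all named genes, 1.88% were higher and 0.506% lower. The 10 feedback genes of the MAP kinase pathway had 0 in either direction, and of 17 calcium/calmodulin-dependent kinases Camk1g was the 1 that was higher.

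The direct targets of pyrethroids, the voltage-gated sodium channels, had 1 of 12 genes higher and 0 lower, beside 1.88% and 0.506% of named genes. The gene was Scn2b, the β2 subunit, at 11.09, 11.6 and 11.87 at 1 mg/kg and 11.07, 11.33 and 11.72 in vehicle (0.19 ± 0.08, unadjusted p = 0.0234). The pore-forming subunits of cortex, Scn1a, Scn2a, Scn3a and Scn8a, differed by -0.15, -0.09, -0.12 and -0.10, with unadjusted p-values of 0.584, 0.735, 0.597 and 0.396. Of 17 calcium channel genes, 1 was lower, Cacng8, a partner of AMPA receptors. It had 6.78, 7.54 and 8.04 at 1 mg/kg and 7.36, 7.87 and 8.39 in vehicle (-0.39 ± 0.15, unadjusted p = 0.0127). Among 23 potassium channel genes, Kcnv1, a silent modifier subunit, was 0.18 higher, and Kcna3 and Kcnh7 were 0.10 and 0.08 lower.

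Receptors and pumps had few genes below the threshold. AMPA and NMDA receptor subunits (18 genes, median -0.063), GABA receptor subunits (11, median -0.084), monoamine and acetylcholine receptors (25, median 0.019), chloride channels and cotransporters (15, median 0.009), and the sodium pump with calcium clearance genes (15, median -0.007) had 0 in either direction. Of 30 genes of vesicle release, 3 were higher and 0 lower, beside 1.88% and 0.506% of all named genes. They were Syn2, a synapsin that tethers vesicles (0.23), Rimbp2, a scaffold of the active zone (0.20), and Vamp1, a vesicle SNARE (0.13). Rimbp2 had been picked by the study for permethrin against the same vehicle rats. Of 14 genes of monoamine synthesis and handling, 1 was lower, Ddc.

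Most glucocorticoid-responsive genes had positive differences that did not pass the test. Of 30, 25 had a positive difference and 5 a negative one, beside 7745 and 6472 of the 14217 named genes, and the list median was 0.092 against 0.01 for all genes. Gpd1, Fkbp5 and Tsc22d3 were higher at unadjusted p under 0.05 and 0 were lower, beside 1.88% and 0.506% of all named genes. The study had picked Gpd1 and Fkbp5 on these same arrays, so their calls are not independent evidence. The same holds for Crh, Camk1g, Ddc, Vdac1, Slc39a8 and Gpd1 where other lists count them. The median of the list's members in each rat, relative to the vehicle mean, was -0.09, 0.092 and 0.186 at 1 mg/kg (lowest, median, highest) and -0.192, -0.03 and 0.251 in vehicle, so the groups overlapped throughout. Heat shock proteins and chaperones (21 genes, median 0.055), endoplasmic reticulum stress genes (26, median 0.052) and oxidative stress genes (20, median 0.058) had 0 in either direction, and 20 circadian clock genes had 0 (median 0.014).

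Genes of energy metabolism had small differences, mostly positive. Among 15 genes of Vdac channels and mitochondrial carriers, 14 had a positive difference, beside 7745 of 14217 named genes, and the median was 0.052. Of the 15, 3 were higher and 0 lower, beside 1.88% and 0.506% of all named genes. Vdac1, the voltage-dependent anion channel of the outer mitochondrial membrane, was at 12.09, 12.18 and 12.25 at 1 mg/kg and 11.92, 12.06 and 12.24 in vehicle (0.11 ± 0.04, unadjusted p = 0.00727). All 8 dosed rats were above its vehicle mean and 1 was above the highest vehicle rat. Slc25a14, a mitochondrial uncoupling carrier of brain, and Slc25a3, the phosphate carrier, differed by 0.14 and 0.07. Glycolysis had 2 of 23 genes higher, Gpd1 and Slc2a3, the neuronal glucose transporter (0.20), and 0 lower. With the array set as a block 8 of the 23 were higher and 0 lower, beside 5.22% and 1.29% of all named genes in that fit. They included Ldha, lactate dehydrogenase A (0.13, unadjusted p = 0.0142), and Pfkp, a phosphofructokinase (0.10, unadjusted p = 0.0201).

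Glycerophospholipid metabolism had 3 of 34 genes higher and 0 lower, beside 1.88% and 0.506% of all named genes. Besides Gpd1 these were Dgkg, diacylglycerol kinase γ, and Pcyt1a, the regulated enzyme of phosphatidylcholine synthesis (0.14). Dgkg was at 9.12, 9.36 and 9.48 at 1 mg/kg and 8.23, 9.13 and 9.39 in vehicle (0.29 ± 0.10, unadjusted p = 0.00426), with all 8 dosed rats above the vehicle mean. The respiratory chain had 1 of 30 higher (Cyc1, cytochrome c1, 0.17) and the proteasome 1 of 25 (Psmb2, 0.17), with 0 lower in both. Of 28 cytosolic ribosomal protein genes 0 were called in either direction (median -0.007). Of 36 genes of branching and neurite guidance, Dcc, a netrin receptor, was the 1 higher (0.11) and 0 were lower, with a median of -0.009.

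Of 26 metal transporter and metallothionein genes, Slc30a6 was higher (0.14) and Slc39a8, a zinc and manganese importer, lower (-0.14). Among all named genes, 1.88% were higher and 0.506% lower. Slc39a8 had been picked by the study for a dose response on these arrays, so its value is not independent evidence. The 14 monocarboxylate and organic anion transporters had 0 in either direction, with a median of -0.042. Of 27 genes for cytochrome P450 enzymes, esterases and drug transport, Abcb1a, the drug efflux pump of the blood-brain barrier, was lower and 0 were higher. Abcb1a was at 6.78, 7.03 and 7.41 at 1 mg/kg and 6.85, 7.23 and 8.26 in vehicle (-0.33 ± 0.15, unadjusted p = 0.0278), with all 8 dosed rats below the vehicle mean. Its difference was -0.55 in the set of 24 and -0.12 in the set of 36.

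The last list held named genes from those that the study picked as dose-responsive to deltamethrin, not all of its probe sets. It was chosen on these same samples, so it is not independent evidence of its direction. Of its 31 measured genes, 14 were higher and 2 lower, beside 1.88% and 0.506% of all named genes, with a median of 0.145. Besides genes already given, it held B3galnt1 (0.30), a glycosyltransferase, Pdlim7 (0.27), Nedd4l (0.19), a ubiquitin ligase of channels and transporters, Gna14 (0.19), a G protein α subunit, Ets2 (0.15), a transcription factor, and Bcat1 (0.09), the cytosolic branched-chain aminotransferase.

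**Figure D5:**
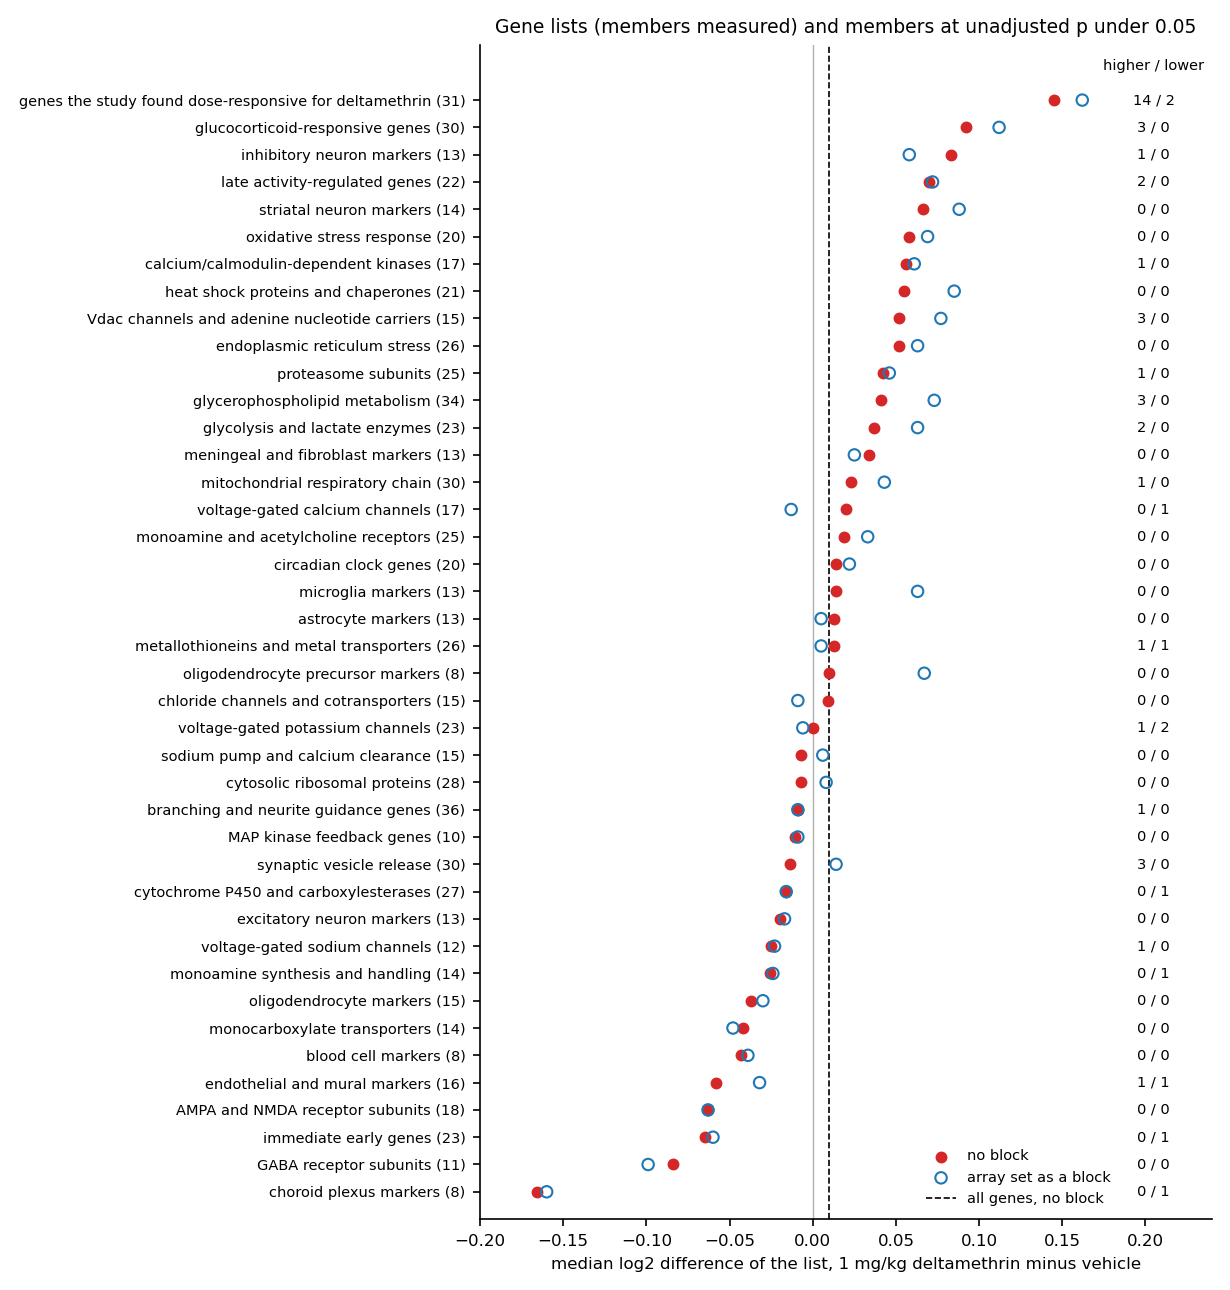
Median log2 difference of 1 mg/kg deltamethrin minus vehicle (x axis) for 41 gene lists, without a block and with the array set as a block, with the numbers of genes higher and lower at unadjusted p under 0.05 beside each list and a dashed line at the median of all named genes (0.01). The list chosen by the study on these samples has the highest median, 0.145, and choroid plexus markers have the lowest, -0.166.

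Markers of cell types in the dissected piece were counted in the same way. In bulk tissue, fewer cells of a type and less RNA per cell cannot be told apart. Markers of oligodendrocytes (15 genes, median -0.037), their precursors (8, 0.01), astrocytes (13, 0.013), microglia (13, 0.014), excitatory neurons (13, -0.02), striatal neurons (14, 0.066), meninges and fibroblasts (13, 0.034) and blood cells (8, -0.043) had 0 in either direction. Of 13 inhibitory neuron markers, Npy was the 1 higher and 0 were lower, beside 1.88% and 0.506% of all named genes. These markers had 11 of 13 positive, beside 7745 of 14217 named genes, and a median of 0.083. Their level in each rat was 0.051, 0.089 and 0.142 at 1 mg/kg and -0.217, 0.033 and 0.118 in vehicle. Npy and Sst stand in both this list and the late activity-regulated genes, and the part of the cells in those values was not tested.

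Endothelial and mural markers had a median of -0.058. Of these 16 markers, 1 was higher (Heg1, 0.17) and 1 lower (Abcb1a), beside 1.88% and 0.506% of all named genes. Their level in each rat was -0.147, -0.046 and 0.333 at 1 mg/kg and -0.192, -0.032 and 0.194 in vehicle. Slco1a4, an organic anion transporter of brain endothelium, differed by -0.30 (unadjusted p = 0.0596). The part of these cells in the values of Erg and Abcb1a was not tested.

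Choroid plexus markers had 7 of 8 negative, beside 6472 of 14217 named genes, and a median of -0.166. Of these markers, 1 was lower and 0 higher, beside 0.506% and 1.88% of all named genes. Their level in each rat was -0.358, -0.175 and -0.012 at 1 mg/kg and -0.225, -0.075 and 0.867 in vehicle. Ttr, transthyretin, the most abundant secreted product of that tissue, ranged over 7.57, 7.9 and 9.37 at 1 mg/kg and 7.48, 8.18 and 13.56 in vehicle (-1.33 ± 0.74, unadjusted p = 0.079). Vehicle replicates 4, 7, 8, 11 and 12 were at 11.6, 12.7, 10.3, 13.6 and 10.9, and no dosed rat was above 9.37. Kcne2, a potassium channel subunit of the choroid epithelium, differed by -0.16 (unadjusted p = 0.0282), and Sostdc1 by -0.53 (unadjusted p = 0.0699). Ttr and Sostdc1 were named after their values were seen, and the part of this tissue in the other genes' values was not tested.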

How the data were processed

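Frontal cortex RNA of 60 rats was measured on Affymetrix Rat Genome 230 2.0 arrays, 1 array per rat. The authors deposited log2 values made by RMA, a method of background correction, quantile normalization and a robust summary over each probe set. The deposited log2 table held 31042 probe sets, with values from 3.75 to 14.1, and was used as given. Read depth does not apply to arrays, and the number of arrays limits the precision. Groups came from the sample titles. The study's cohorts were exposed on separate days, and each held vehicle rats and rats of every dose, but the labels do not give a rat's cohort. Littermates are not in the labels either. The p-values of the fit below measure the spread between rats within the groups of all 60 arrays, and any difference between array sets is part of that spread.

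One fit of all 60 arrays by limma 3.58.1 (R 4.3.3) with 7 group means gave 1 mg/kg minus vehicle, with moderated variances and p-values adjusted by Benjamini-Hochberg over the whole table (threshold 0.05). The median of each list and its counts are descriptions, with no set test. Gene symbols came from the platform annotation: 20826 probe sets had 1 symbol, 436 several and 9780 none, and those with several or none were not named. Where a gene had several probe sets, its list value was that of the brightest. Array sets came from single-linkage clustering of the first 2 components, and the group of 14 from 2-means clustering, both in R. Counts and figures were made in Python 3.11.15 (numpy 2.4.6, scipy 1.17.1, pandas 2.3.3, matplotlib 3.10.9). The fit was tested on simulated data, and found 38 of 50 probe sets lowered by 0.5, with 1 false call among 31042.

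Named were the 10 higher and 10 lower probe sets of lowest p. Also named were the 5 and 5 of lowest p with the arrays that stood far apart on the first component as a block. Genes the study measured by qRT-PCR and Crh were named, as were the 5 largest differences at unadjusted p under 0.05. So were list members at unadjusted p under 0.05 and any probe set without overlap. The members, the lists and the rule were chosen with earlier results of these data known. Alternatives changed the arrays in the fit, blocks and covariates, scaling, the filter on dim probe sets (mean under 6) and the variance prior, and left out each array. The block on array sets, both-component covariates and within-set fits were added after seeing the data. The qRT-PCR and cell culture data were not analysed here.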

Additional observations from a re-analysis of the deposited data

Results flagged for a closer look

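Of 76 named probe sets, 2 had a rat at 1 mg/kg far from the other 7 (gap over range above 0.526 for 8 rats, which chance gives in about 1 in 20 groups). Dmac1, an assembly factor of respiratory complex I, had its lowest rat at 8.91, with a gap of 0.546 of the range. One probe set of Bdnf had its lowest rat at 6.55, with a gap of 0.609.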

How the results depend on the processing

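With 8 against 12 arrays, the simulation found 18 of 50 probe sets changed by 0.25 log2 units and 37 of 50 changed by 0.5. Those rates may be too high for the real data, so larger changes could also go undetected. Probe sets near background carry little signal. No probe set was called at 1 mg/kg under any alternative but 3: 11 with the group of 14 arrays as a block and the first component, 30 with both components, and 1 (Nfic) with the first component not centred within groups. Probe sets higher and lower before adjustment numbered 781 and 456 with the group of 14 as a block, 1920 and 1398 with the first component, 1805 and 1617 with that block and the first component, 2514 and 2101 with both components, and 981 and 742 with the uncentred component. They numbered 1176 and 766 with the array set block, 778 and 951 with 3 sets, 113 and 128 within the 14 arrays (2 rats at 1 mg/kg and 2 vehicle rats), 1008 and 538 without them, and 1194 and 899 within the other 10 arrays of the set of 24. Those 10 hold 1 rat at 1 mg/kg and 4 vehicle rats, so the lone rat is assumed to vary like the other groups and these counts say little. Within the set of 36, 620 were lower. With array weights 1556 were higher and 2236 lower (41.0% higher), with median centring 717 and 104, by Dunnett contrasts 163 and 90, and without dim probe sets 147 were lower. Higher ones made up 45.0% with 3 sets, 41.3% within 36, 46.9% within 14, 70.8% within 24 and 70.4% without dim probe sets. Between 1 and 0.3 mg/kg, 3 were called with the first component, 171 with both and 200 with the group of 14 as a block and the first component. Leaving out each of the 20 arrays gave 244 to 756 higher, 211 to 501 lower, 0 calls and 0 to 2 probe sets without overlap. The counts moved most without vehicle replicates 4 (756 higher), 5 (678), 2 (275), 6 (252) and 7 (467 lower) and without 1 mg/kg replicates 1 (244 higher), 6 (673) and 7 (501 lower). Replicate numbers did not pair the rats (same-number correlations -0.863 to 0.696), and a replicate block gave 759 higher, 531 lower and 0 calls. Reversed values were, within the 14 arrays, Mtmr11 -0.0422, Cit 0.071, Ddc 0.0105, Fkbp5 -0.0773, Hspb1 -0.274, Bdnf 0.00447, Slc39a8 0.0361 and Kcne2 0.0629. Ddc was 0.0331 with the replicate block. Fos was -0.00662 with the group of 14 as a block, -0.0169 without those arrays, -0.0588 with array weights, -0.00245 with 3 sets, -0.0185 with the uncentred component and -0.0858 within the set of 10. Leaving out each array gave -0.0246 (without 1 mg/kg replicate 1) to 0.0455 for Fos and -0.126 to 0.00451 (without vehicle replicate 4) for Egr1. Egr1 was 0.054 within the set of 36. Within the set of 10, with its 1 rat at 1 mg/kg against 4 vehicle rats, Pkp4 was 0.13, Rimbp2 -0.0414 and Ttr 0.641, and Kcne2 was 0.0142 within the set of 24. The causes were not tested.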
